A study of Mus musculus with 2 samples.

Results

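The genes of T cell receptor (TCR) signalling and costimulation were examined for PPARγ binding in mouse TH2 cells. They are 57 listed genes, and all 57 were found in the annotation. Their layers are the receptor complex and coreceptor, costimulatory and adhesion receptors, inhibitory or modulatory receptors, proximal kinases and adaptors. The remaining layers are downstream effectors, NFAT and calcineurin, and a group of phosphatases, CSK and ubiquitin ligases. A peak was counted for a gene when the start site of that gene was the nearest transcription start site (TSS) of a protein-coding transcript to the peak centre, within 100 kb. By this rule 21 of the 57 genes held 26 of the 2537 deposited peaks. Naive CD4+ T cells of C57BL/6J mice were polarised to TH2 in culture and transduced on days 1 and 2 with a retrovirus that expresses Pparg with a TY1 tag. On day 4, 1 chromatin immunoprecipitation (ChIP) library was made with an antibody against the tag and set against 1 input library without antibody. Both libraries came from transduced cells, and the map shows the introduced, tagged receptor rather than the cells' own. Cells without the virus were not analysed here, and with 1 library of each kind no test between conditions was possible.

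The depth of the ChIP library was 10229438 tags. Peaks took up 0.53% of them, a mean of 21.5 tags for each peak. The rows give positions alone: the score is 1 throughout, so peak strength is unknown and each peak counts once. The peak list holds no expression data, so the labelled cell type was not checked by markers. Intervals given below are exact binomial (Clopper-Pearson) 95% intervals and cover counting error only.

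The T cell receptor has no enzyme activity of its own. When it meets antigen, the kinase LCK phosphorylates the CD3 and zeta chains, ZAP-70 docks there, and the adaptors LAT and SLP-76 gather the enzymes that switch on calcium and NFAT, protein kinase C theta and NF-κB, and RAS. Costimulatory receptors such as CD28 add to this signal, whereas inhibitory receptors, phosphatases and ubiquitin ligases restrain it. PPARγ is a ligand-activated nuclear receptor that binds DNA with RXR at DR1 elements, direct repeats of AGGTCA with a 1 bp spacer.

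The DR1 matches are shown first because the 7 genes that hold them span costimulation, adaptors, RAS and protein kinase C activation, NFAT and a ubiquitin ligase. A match had up to 2 mismatches in the 12 fixed bases, within 200 bp around the peak centre, on either strand. Such a match was in 7 of the 26 peaks (26.9%, interval 11.6 to 47.8) and in 19.8% of all 2537 peaks. With up to 1 mismatch these shares were 3.85% and 6.42%. Each line reads 5′ to 3′ on the strand of the match. Capitals mark the 13 bases of the match and lower case the 4 bases before it.
Cd28 (chr1:60762036-60762048, minus strand): atggAGGTCAGAGGTCA
Lcp2 (chr11:34031665-34031677, plus strand): atgtAGGTCAAAGGCTA
Grap (chr11:61651046-61651058, plus strand): gatgAGTGCAAAGGTCA
Rasgrp1 (chr2:117371622-117371634, minus strand): aagtAGGTGAAAGGGCA
Prkcq (chr2:11143056-11143068, plus strand): aaccAAGTCACAGATCA
Nfatc2 (chr2:168491784-168491796, minus strand): atgtAGGCCAAAAGTCA
Cblb (chr16:52143790-52143802, plus strand): agctGTGTCAAAGGTCA

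Coordinates are mm10 and the letters are those of the RefSeq GRCm38.p6 assembly. The Cd28 match was the consensus without a mismatch, and the other 6 had 2 mismatches each. Counted from 1 at the first base of the match, the departures from the consensus were T11C and C12T at Lcp2, G3T and T4G at Grap, C5G and T11G at Rasgrp1. They were G2A and G10A at Prkcq, T4C and G9A at Nfatc2, and A1G and G2T at Cblb. The downstream core was intact at Cd28, Grap and Cblb and the upstream core at Cd28 and Lcp2, whereas Rasgrp1, Prkcq and Nfatc2 kept neither. The spacer, position 7, was adenine in 5 of the 7 matches, guanine at Cd28 and cytosine at Prkcq. The share with adenine was thus 71.4% (interval 29.0 to 96.3), and among all 502 peaks with a match it was 52.8%. The base before the match was thymine in 4 of 7 (57.1%, interval 18.4 to 90.1), against 46.8% of the 502. In 6 of 7 genes (85.7%, interval 42.1 to 99.6) the match ran on the strand of the gene, with Cd28 the exception. It did so in 50.3% of the 437 assigned peaks with a match. Each of these intervals holds the share set beside it.

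Peaks were assigned to genes of every layer of the cascade except the receptor complex and its coreceptor. Of the 57 genes, 36.8% (interval 24.4 to 50.7) had a peak, and of all 21851 protein-coding genes 7.68% had one. The costimulatory and adhesion receptors had a peak at 4 of 6 genes, the NFAT and calcineurin group at 3 of 5, the adaptors at 5 of 10 and the proximal kinases at 2 of 4. The downstream effectors had 3 of 8, the inhibitory or modulatory receptors 3 of 10, and the group of phosphatases, CSK and ubiquitin ligases 1 of 9. With 4 to 10 genes in a layer the intervals are wide and overlap, and differences between layers were not tested. Layers also differed in territory, the sequence within 100 kb that lies nearest to the start sites of a gene. Its median ran from 23.9 kb in the receptor complex and coreceptor to 149 kb in the NFAT and calcineurin group. The part of territory in the layer counts was not tested. A peak with a DR1 match was present at 7 genes, where 1.90% of all protein-coding genes had one. A peak with an AP-1 match was present at 4 genes, where 1.65% of all genes had one. More than 1 peak was present at 5 genes (Cd2, Cd28, Grap, Rasgrp1 and Prkcq), where 1.52% of all genes had 2 or more. Within 10 kb, 6 genes had a peak, where 3.38% of all genes did.

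**Figure D1:**
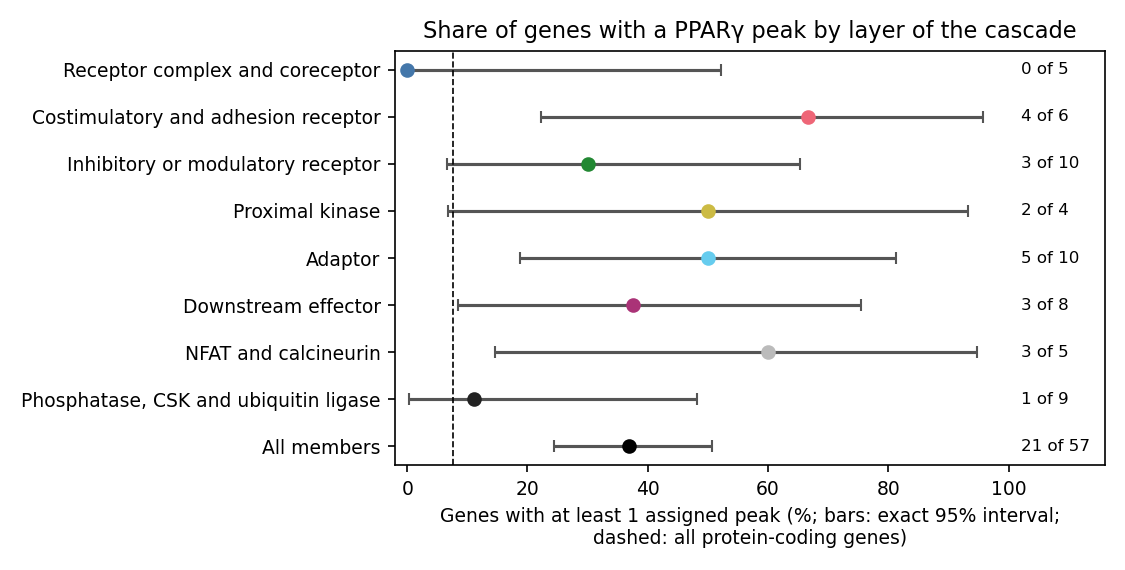
Share of genes with at least 1 assigned PPARγ peak (%) in each layer of the cascade and over all 57 genes, with exact 95% intervals as bars and the share of all protein-coding genes (7.68%) as a dashed line. The receptor complex stands at 0 of 5 genes and the costimulatory and adhesion receptors at 4 of 6.

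The receptor complex and its coreceptor had no peak at any of 5 genes, a count of 0 that allows a share of up to 52.2%. Cd3d and Cd3g were in the quartile of shortest territories, where 2.56% of all genes had a peak. For Cd3e and Cd4, in the next quartile, that share was 4.65%, and for Cd247, in the one after, 9.87%. Cd3e, Cd3d and Cd3g, which encode the CD3 chains, are neighbours on chromosome 9. The nearest peak to all 3 was the same one (chr9:45072052-45072224), in an intron of Jaml, an adhesion receptor gene. It lay 62.5, 90.4 and 91.7 kb from their start sites and 7.04 kb from that of Jaml, and it held an AP-1 match. Cd247, which encodes the zeta chain, had its nearest peak at 167 kb. That of Cd4, the coreceptor gene, lay at 210 kb.

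Among costimulatory receptors, Cd28 carried 2 peaks inside the gene. They were centred 15.7 kb (chr1:60762000-60762172) and 18.9 kb (chr1:60765156-60765328) from the TSS, in introns 1 and 2 of 3, and 3.16 kb apart. The first held the exact DR1 shown above, 44 bp from the peak centre and in repeat-masked sequence. The second had no DR1 within 2 mismatches and none of the 8 other motifs searched. The next start site on that side, of the inhibitory receptor gene Ctla4, lay 144 kb from the second peak, and that of Icos, another receptor gene of this cluster, 213 kb from it. Neither Ctla4 nor Icos had a peak. The first Cd28 peak is printed whole on the plus strand, with the DR1 in capitals, because it is the only exact consensus among the 26 peaks.
Cd28 (chr1:60762000-60762172): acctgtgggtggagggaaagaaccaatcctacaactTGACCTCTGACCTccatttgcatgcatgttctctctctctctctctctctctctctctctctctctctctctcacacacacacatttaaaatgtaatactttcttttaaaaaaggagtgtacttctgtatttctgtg

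Cd2, the gene of an adhesion receptor that binds CD48, had 2 peaks beyond its 3′ end, 54.0 kb (chr3:101233862-101234034) and 84.4 kb (chr3:101203438-101203610) from its TSS. Both were intergenic, without DR1 or AP-1, and the next gene, Ptgfrn, had its TSS 93.2 kb from the farther peak. Slamf1, which encodes a self-binding costimulatory receptor, had a peak in intron 3 of 6 at 16.2 kb (chr1:171783286-171783458), centred in repeat-masked sequence. Its neighbour in the same receptor cluster, Slamf6, had none, with the nearest peak at 134 kb.

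Cd226, which encodes the activating receptor that shares ligands with TIGIT and CD96, had an intronic peak 36.5 kb from the nearest start site (intron 4 of 7, chr18:89234054-89234226). That start site is an alternative one: the peak was 57.1 kb from the start of the principal transcript. It held 2 RUNX sites and 1 GATA site. Its inhibitory counterparts Tigit and Cd96 had no peak, with the nearest at 440 and 109 kb.

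Of the inhibitory or modulatory receptors, 3 had a single peak each. Pdcd1, the PD-1 gene, had an intronic peak at 4.45 kb (chr1:94048021-94048193), in intron 1 of 4. Cd200r1, which encodes the receptor for CD200, had an intergenic peak 3.62 kb upstream (chr16:44762029-44762201), with none of the 9 motifs. Cd5, which encodes a receptor that dampens TCR signals, had a peak 20044 bp upstream (chr19:10758960-10759132), inside an intron of the noncoding gene A430093F15Rik. None of these 3 peaks held DR1 or AP-1. The 7 genes without a peak were Cd6, Ctla4, Btla, Lag3, Havcr2, Tigit and Cd96. Cd6, a close relative and neighbour of Cd5, had a peak 19.6 kb from its TSS (chr19:10849528-10849700) that was assigned to the peptide transporter gene Slc15a3 at 7.07 kb. That peak held a DR1 with 1 mismatch and was centred in repeat-masked sequence.

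**Figure D2:**
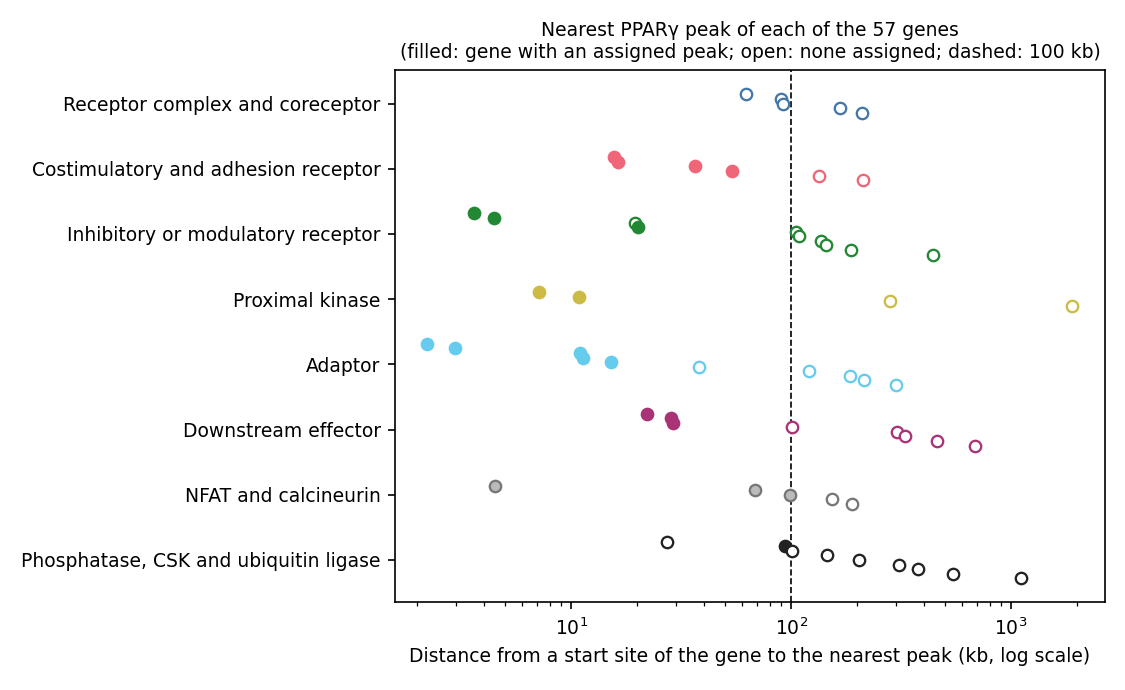
Distance in kb (log scale) from a coding start site of each of the 57 genes to the nearest peak of the whole list, by layer. Filled points are the 21 genes with an assigned peak and open points the 36 without, and 30 of these 36 lie beyond the dashed line at 100 kb.

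The kinase genes Fyn and Txk had a peak, and Lck and Zap70 had none. Fyn, which encodes a SRC family kinase close to LCK, had a peak in intron 1 of 13 at 7.13 kb (chr10:39376852-39377024). Its AP-1 match lay 96 bp from the centre, near the edge of the 200 bp searched and outside the peak itself. Txk, which encodes a TEC family kinase, had a peak in intron 4 of 13 at 10.9 kb (chr5:72725606-72725778). It was classed as a promoter because the processed pseudogene Gm43717 starts there. It held 2 AP-1 sites, the nearer 14 bp from the centre, and is printed on the plus strand, with both sites in capitals, as the member peak with the most AP-1 sites.
Txk (chr5:72725606-72725778): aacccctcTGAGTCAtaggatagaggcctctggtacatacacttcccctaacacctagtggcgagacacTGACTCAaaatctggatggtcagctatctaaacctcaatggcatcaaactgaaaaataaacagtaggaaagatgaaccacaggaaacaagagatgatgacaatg

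Lck, whose kinase starts the cascade, had its nearest peak at 282 kb. Zap70, whose kinase acts next, had the most distant nearest peak of all 57 genes, at 1900913 bp.

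Adaptor genes held 6 peaks at 5 of 10 genes. Grap, which encodes a GRB2-related adaptor, had 2 peaks, 1 on each side of the TSS and 8.64 kb apart. The upstream peak, 2.22 kb from the TSS (chr11:61650957-61651129), was the closest of all 26 to a start site, and its DR1 lay 9 bp from the centre. The other lay in intron 1 of 4 at 6.42 kb (chr11:61659594-61659766), without DR1. Lcp2, which encodes SLP-76, had a peak 15.2 kb upstream (chr11:34031638-34031810), with DR1 53 bp from the centre. It lies within the bounds of another protein-coding gene, 4930469K13Rik, but in none of that gene's transcripts in the basic annotation, and was therefore classed as intergenic. The Grap and Lcp2 peaks are printed on the plus strand with DR1 in capitals, since both lie upstream of adaptor genes and differ in which core is intact.
Grap (chr11:61650957-61651129): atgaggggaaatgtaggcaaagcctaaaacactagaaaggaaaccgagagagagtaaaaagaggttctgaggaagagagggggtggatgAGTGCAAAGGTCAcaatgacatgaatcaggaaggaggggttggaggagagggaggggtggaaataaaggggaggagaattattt
Lcp2 (chr11:34031638-34031810): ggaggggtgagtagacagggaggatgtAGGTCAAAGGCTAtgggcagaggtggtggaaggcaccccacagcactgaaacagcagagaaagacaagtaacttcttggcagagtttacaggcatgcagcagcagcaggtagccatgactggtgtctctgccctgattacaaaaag

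Themis, whose product tunes TCR signals during thymocyte selection, had a peak in intron 1 of 5 at 2.97 kb (chr10:28671281-28671453). Fyb, which encodes the adaptor ADAP that links the receptor to integrins, had a peak in intron 1 of 17 at 11.3 kb (chr15:6591114-6591286), centred in a repeat. Grap2, which encodes GADS, the partner of SLP-76, had a peak in intron 3 of 6 at 15.7 kb (chr15:80639049-80639221). Another peak was closer to Grap2, at 10957 bp, but it was assigned to the neighbouring gene Enthd1. None of these 3 assigned peaks held DR1 or AP-1. Lat, Trat1, Sit1, Sh2d2a and Grb2 had no peak. Lat, the membrane scaffold gene, had its nearest at 213 kb and Grb2, the gene of the adaptor that recruits SOS, at 38.2 kb, where Tmem94 was nearer.

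Downstream effector genes held 5 peaks at 3 of 8 genes. Rasgrp1, which encodes the exchange factor that activates RAS on diacylglycerol, had 2 intergenic peaks upstream, at 28.6 kb (chr2:117371487-117371659) and 57.3 kb (chr2:117400180-117400352). The nearer held DR1, 55 bp from the centre, and the farther held an AP-1 site 74 bp from the centre and 2 GATA sites. Prkcq, which encodes protein kinase C theta, had 1 peak upstream at 29.0 kb (chr2:11143006-11143178) with DR1, and 1 in intron 1 of 17 at 31.6 kb (chr2:11203670-11203842) without it. Vav3, which encodes a guanine nucleotide exchange factor of the VAV family, had a peak in intron 19 of 26 (chr3:109595823-109595995), centred in a repeat and with an AP-1 site 40 bp away. It lay 22.0 kb from an alternative start site but 255 kb from that of the principal transcript. Plcg1, Vav1, Sos1, Bcl10 and Malt1 had no peak, with the nearest between 100908 bp for Sos1 and 682384 bp for Malt1. Plcg1, the gene of the phospholipase that makes diacylglycerol, had its nearest at 458 kb.

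The NFAT genes carried peaks at 3 of the 4 members of the family on the list. Nfatc3 had an intergenic peak 4.53 kb upstream (chr8:106054229-106054401). Nfatc2 had a peak with DR1, 10 bp from the centre, at 98.4 kb (chr2:168491694-168491866), in the last of 9 introns. This peak lies just inside the 100 kb limit. A limit of 50 kb would remove it, and also the peaks of Nfatc1, Cblb and Cd2. The farther peak of Rasgrp1 would go too, but that gene would keep its nearer one. The Nfatc2 peak is printed on the plus strand, with DR1 in capitals, as the match closest to the centre after that of Grap.
Nfatc2 (chr2:168491694-168491866): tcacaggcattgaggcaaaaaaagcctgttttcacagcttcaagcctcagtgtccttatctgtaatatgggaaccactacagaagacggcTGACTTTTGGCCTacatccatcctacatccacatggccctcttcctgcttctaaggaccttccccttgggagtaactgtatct

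No NFAT site (TGGAAA on either strand) was found in the 3 peaks of the NFAT genes. Of all peaks 19.3% held such a site, and 3 peaks are too few to differ from that share. Nfat5, the family member that responds to osmotic stress, had its nearest peak at 189 kb, and Rcan1, which encodes an inhibitor of calcineurin, at 154 kb.

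Among phosphatases, CSK and ubiquitin ligases, Cblb alone had an assigned peak. It encodes the ligase CBL-B, which restrains T cell activation without costimulation. The peak lay in intron 9 of 17 (chr16:52143623-52143795), 94.1 kb from the nearest start site and 112 kb from that of the principal transcript. Its DR1 began inside the peak and ended 7 bp beyond it, 87 bp from the centre. The 8 genes without an assigned peak were Ptpn6, Ptpn22, Ptprc, Csk, Pag1, Cbl, Ubash3a and Ubash3b. Ptpn22, which encodes a phosphatase that acts on LCK and ZAP-70, nevertheless had a peak inside the gene, in intron 13 of 20 (chr3:103887489-103887661). Its centre lay 27.3 kb from the TSS of Ptpn22 and 26.5 kb from that of Rsbn1, to which the rule assigned it. It was centred in repeat-masked sequence and held a DR1 with 1 mismatch, together with an AP-1 site and an AP-1 and IRF composite.

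Nfatc1, the gene of the NFAT factor that T cell activation induces, had an intronic peak 68.6 kb from the nearest start site (chr18:80639464-80639636), with neither DR1 nor AP-1. It lay inside the gene but outside its principal transcript.

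**Figure D3:**
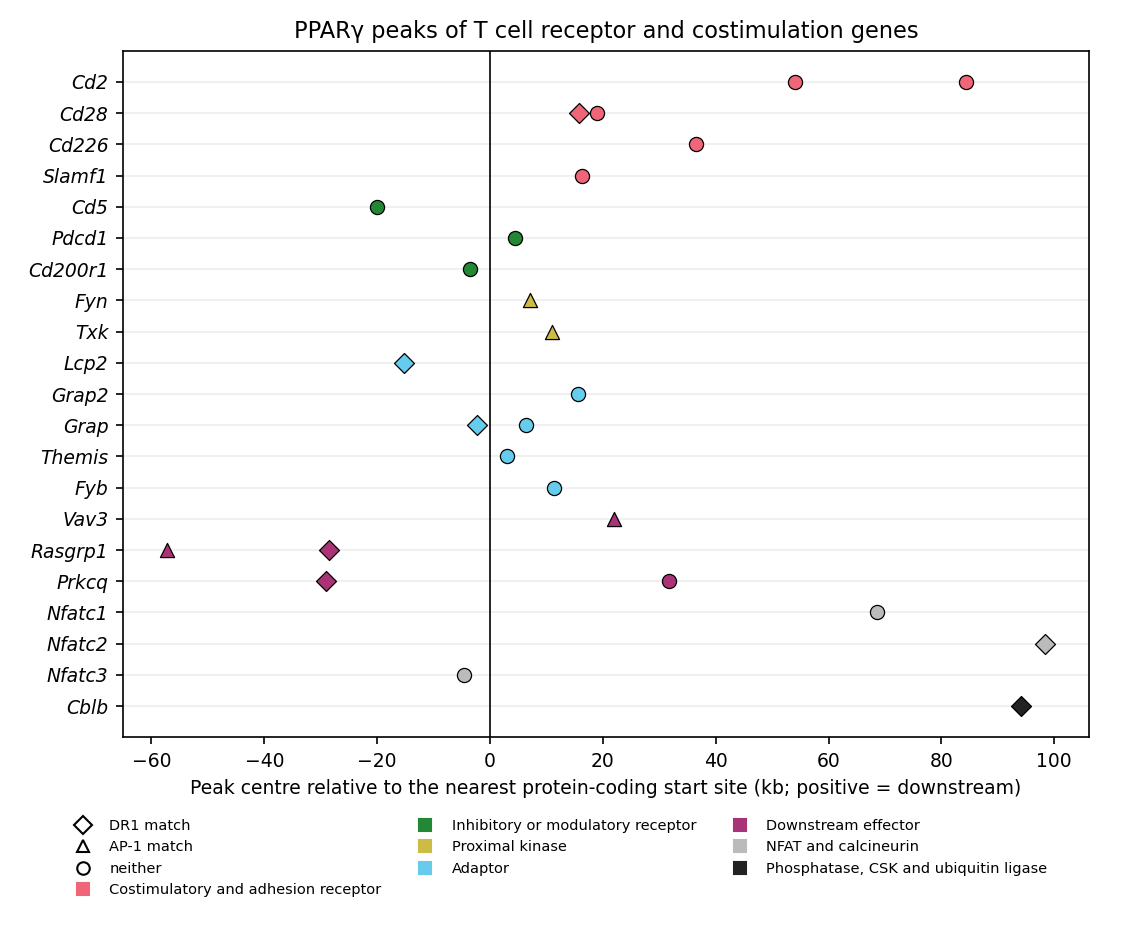
Position of the 26 peaks relative to the nearest coding start site of their gene (kb, positive in the direction of transcription), 1 row per gene and coloured by layer. Diamonds are the 7 peaks with DR1 and triangles the 4 with AP-1. The 26 points run from 57.3 kb upstream at Rasgrp1 to 98.4 kb downstream at Nfatc2.

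Most of the 26 peaks lay in the body of their gene and none at its promoter. By the class of the centre, 16 were intronic (61.5%, interval 40.6 to 79.8), 9 intergenic (34.6%), 1 in a promoter and 0 in an exon. Of all 2124 assigned peaks 53.3% were intronic, 33.7% intergenic, 9.04% in promoters and 3.91% in exons. An intron of the principal transcript of the assigned gene held 15 of the 26 (57.7%, interval 36.9 to 76.6), against 40.5% of all assigned peaks. Of these 15, 7 were in the first intron (46.7%), at Cd28, Pdcd1, Fyn, Grap, Themis, Fyb and Prkcq, and the share among all assigned peaks of this kind was 47.4%. Counting every transcript, 16 peaks lay within the bounds of their gene, against 47.1% of all assigned peaks. A further 8 lay upstream and 2 downstream, both at Cd2. The 16 peaks within their gene are not the same set as the 16 classed as intronic. The Txk peak is in its gene but classed as a promoter, and the Cd5 peak is intronic but upstream of its gene. The median distance to the TSS was 17.6 kb (interval of the median 10.9 to 31.6, quartiles 8.08 and 35.3), and 16.4 kb over all assigned peaks. Within 1 kb there were 0 of 26, which allows a share of up to 13.2%, where 9.37% of all assigned peaks lay. Within 10 kb there were 7 of 26 (26.9%), against 38.1%.

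DR1 was found in 7 of the 26 peaks (26.9%, interval 11.6 to 47.8) and in 19.8% of all 2537 peaks. The interval holds the share of the whole list. Within the member peaks DR1 occurred in 4 of 9 intergenic peaks (44.4%, interval 13.7 to 78.8), at Lcp2, Grap, Rasgrp1 and Prkcq. It occurred in 3 of 16 intronic ones (18.8%, interval 4.05 to 45.6). Over all assigned peaks these shares were 23.9% and 18.2%. Of the 5 genes with 2 peaks, Cd28, Grap, Rasgrp1 and Prkcq each had DR1 in 1 of them and Cd2 in neither, and 3 of the 16 genes with a single peak had it. Among all genes with 2 peaks 42.1% had a DR1 peak, and among those with 1 peak 270 of 1347 did. The best match of a further 9 member peaks had 3 mismatches, and the remaining 10 had more. The matches lay 9 to 87 bp from the centre, with a median of 44 bp, against 30.5 bp in the whole list.

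AP-1 sites (TGACTCA or TGAGTCA) were found in 4 member peaks, at Fyn, Txk, Vav3 and Rasgrp1 (15.4%, interval 4.36 to 34.9), and in 17.9% of all peaks. No member peak had both DR1 and AP-1, a count of 0 that allows up to 13.2%, where the whole list had 3.35%. One or the other was present in 11 of 26 (42.3%, interval 23.4 to 63.1), against 34.3%. NFAT sites (TGGAAA) were in 9 peaks (34.6%, interval 17.2 to 55.7, against 19.3%), and GATA sites (AGATAA and its variants with T first, G last or both) in 10 (38.5% against 37.6%). RUNX sites (TGTGGT) were in 5 peaks (19.2% against 18.6%) and ETS sites (AGGAAGT) in 2 (7.69% against 7.96%). A single AGGTCA, which any DR1 with an intact core also contains, was in 9 (34.6% against 27.8%). No member peak held the AP-1 and IRF composite, which contains the core of AP-1 and was in 1.58% of all peaks. All these intervals hold the share of the whole list. A scrambled DR1 with the same bases was in 0 of 26 and in 0.355% of all peaks, but its order of letters contains a CG pair and it is a weak control.

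**Figure D4:**
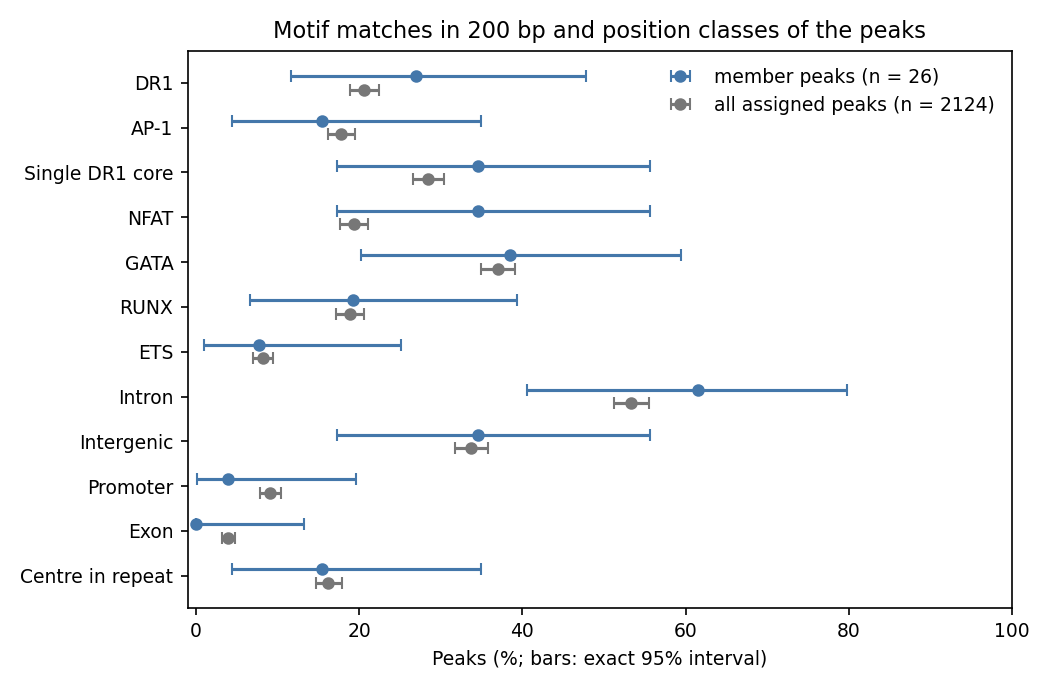
Share of peaks (%) with each motif within 200 bp and in each position class, for the 26 member peaks and for all 2124 assigned peaks, with exact 95% intervals. For every item plotted, the member interval holds the value of all assigned peaks.

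The genes with a peak had more sequence assigned to them than those without. The territory of a gene, the sequence that lies nearer to its start sites than to those of any other gene and within 100 kb, had a median of 133 kb in the 21 genes with a peak. It was 69.2 kb in the 36 without and 47.4 kb in all protein-coding genes. In the quartile of longest territories 14 of 25 members had a peak (56.0%, interval 34.9 to 75.6), where 13.7% of all genes did. In the next quartile there were 6 of 18 (33.3%, interval 13.3 to 59.0) against 9.87%, then 1 of 9, Cd200r1, against 4.65%, and 0 of 5 against 2.56%. Cd3d, Cd3g, Lag3, Sit1 and Ptpn6 made up this shortest quartile. Per length, the members held 4.37 peaks per Mb of territory and all protein-coding genes 1.36. Chromatin accessibility was not analysed here, and its part in these counts was not tested.

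**Figure D5:**
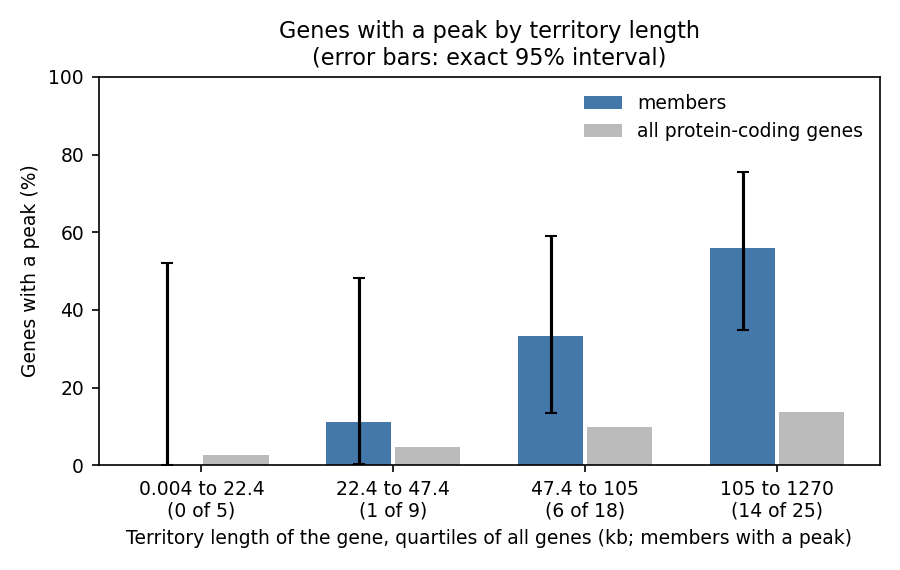
Share of genes with a peak (%) by territory length, in quartiles of all protein-coding genes, for the members (blue, with exact 95% intervals) and for all genes (grey). The member bars are 0, 11.1, 33.3 and 56.0% and those of all genes 2.56, 4.65, 9.87 and 13.7%.

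Of the 36 genes without an assigned peak, 6 had a peak within 100 kb to which another gene was nearer (Cd3e, Cd3d, Cd3g, Cd6, Grb2 and Ptpn22). The other 30 had none within that distance, and for Zap70 and Ubash3b the nearest was beyond 1000 kb. Counting any peak within 100 kb, whichever gene is nearest, 27 of 57 members (47.4%, interval 34.0 to 61.0) had one, and so did 23.5% of all protein-coding genes.

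Of 58 further genes of the same pathway, 12 had a peak (20.7%, interval 11.2 to 33.4), where 7.68% of all genes did. The intervals of the members and of these genes overlap and the difference was not tested. Skap1, which encodes an adaptor partner of ADAP, had 5 peaks from 5.57 to 71.4 kb from its TSS, and only 7 of all protein-coding genes had 5. Nck2, an adaptor gene, had 2 intronic peaks at 19.2 and 29.0 kb, and Sla, which encodes a SRC-like adaptor that lowers TCR levels, had 2 at 0.869 and 4.97 kb, both from alternative start sites. Camk4, a calcium-dependent kinase gene, had peaks at 44.5 and 53.5 kb, and the scaffold gene Gab2 at 14.2 and 39.2 kb. The farther Gab2 peak lay inside another protein-coding gene, Nars2. Peli1, the gene of a ubiquitin ligase that restrains T cell activation, had peaks at 11.5 and 23.3 kb. The first distance is to an alternative start site, and that peak lay 32.6 kb from the start of the principal transcript. The peak at 23.3 kb held DR1 with 1 mismatch. That was the single DR1 among the 21 peaks of these genes (4.76%, interval 0.12 to 23.8), and AP-1 was found in 6 of them (28.6%, interval 11.3 to 52.2). Of all peaks, 19.8% had DR1 and 17.9% AP-1, and the 2 intervals hold these shares. The other 46 genes had no assigned peak.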

How the data were processed

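One deposited table was used, the peak list of the ChIP library. Per the file headers, the authors called peaks with HOMER in its factor style against the input: peak size 172 bp, at least 344 bp between peaks, a false discovery rate of 0.001 (8 tags) and at least a 4-fold excess over input and over the local 10000 bp. The submitters' processing notes name Bowtie2, HOMER and mm10; tool versions and alignment settings are not given in the sources used here. The score column deposited by the authors holds 1 in each of 2537 rows, so it ranks no peak.

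Deposited positions were taken as BED intervals and appear here in 1-based form. Genes came from the basic set of GENCODE vM21, sequence and repeat masking from RefSeq GRCm38.p6, the assembly of mm10; 0 peaks lay beyond a chromosome end. Classes followed the peak centre in the order promoter (1000 bp upstream to 100 bp downstream of any TSS), exon, intron, intergenic. Introns were counted in 1 transcript per gene (APPRIS principal, then longest).

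The gene list, layers and 9 motifs were chosen with earlier results of these data known; every member with a peak is named, and of the other pathway genes those with 2 or more peaks or DR1. Of 59 other symbols 58 were used; Rlk is an older name of the member Txk. Scripts were tested on simulated data. Python 3.11.15, numpy 2.4.6, scipy 1.17.1, pysam 0.24.0 and matplotlib 3.10.9 were used.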

Additional observations from a re-analysis of the deposited data

How the results depend on the processing

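No paired analysis was possible because there is 1 ChIP library and no test between groups. The 21 members with a peak became 6 with a limit of 10 kb (10.5%, against 3.38% of all genes) and 10 with the later rows of the file, divided at its middle (14 with the earlier rows). The other pathway genes went from 12 to 4 at 10 kb (6.9%, interval 1.91 to 16.7, against 3.38% of all genes). They went to 20 when any peak within 100 kb counted (34.5%, interval 22.5 to 48.1, against 23.5% of all genes). The latter setting was chosen after seeing the data. Both intervals hold the share of all genes beside them. The DR1 share was 3.85% with up to 1 mismatch (6.42% in all peaks) and 61.5% with up to 3 (48.3%). With a limit of 50 kb 17 members remained (29.8%), without Cblb, Cd2, Nfatc1 and Nfatc2. The group of phosphatases, CSK and ubiquitin ligases then had no gene with a peak. With the TSS of any annotated gene 14 members remained, without Cblb, Cd2, Cd5, Grap2, Nfatc1, Nfatc2 and Txk. All 21 remained with a 200 kb limit and with the comprehensive annotation, and 18 with peaks outside repeats. Of the changed settings, only the 10 kb limit and any peak within 100 kb have the share of all genes beside them. The counts under the other settings cannot be set against the 7.68% of all genes. A stricter peak threshold could not be set because the score does not vary, and with 26 peaks only large departures from the whole list would show.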

Other observations

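The exact DR1 at Cd28 lay in repeat-masked sequence and had guanine in the spacer. Over the whole list, 73 peaks had their DR1 match in masked sequence, and guanine was the spacer in 55 of them (75.3%, exact interval 63.9 to 84.7). Of the 429 matches outside masked sequence, 24.2% had guanine (interval 20.3 to 28.6) and 58.0% adenine. The peaks near Cd6 and inside Ptpn22, which the rule assigned to other genes, also had guanine there and were centred in masked sequence, so the 3 matches are set side by side with 4 bases before each in lower case.
Cd28: atggAGGTCAGAGGTCA
Cd6: atggAGGCCAGAGGTCA
Ptpn22: gtgtAGGTCAGAGGTGA

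The 6 member matches outside masked sequence had adenine in 5 and cytosine in 1. This comparison was chosen after the sequences were seen and was not tested, and the kind of repeat was not analysed here.

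Of the 4 member peaks with AP-1, those at Fyn, Txk and Vav3 also held a RUNX site, as did 19.0% of the 453 AP-1 peaks of the whole list. Of the 15 member peaks with neither DR1 nor AP-1, 7 held an NFAT site (46.7%, exact interval 21.3 to 73.4), against 20.6% of the 1667 such peaks in all. Both were picked after the values were seen and were not tested.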
